A study of Mus musculus with 51 samples.

Results

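The trophectoderm transcription factors are 10 genes, Cdx2, Gata3, Gata2, Eomes, Elf5, Tead4, Tfap2a, Tfap2c, Id2 and Hand1, chosen by name out of 18193 genes measured on 51 mouse arrays. All 10 were found, with 22 probe sets that carry exactly 1 of these symbols. A probe set is a group of short array probes designed for 1 transcript, and the main probe set of a gene is the one with the largest SD over the 51 arrays. Each array was hybridised with amplified RNA of 1 whole oocyte or embryo. There were 3 metaphase II (MII) oocytes of the B6D2F1 strain, the unfertilised egg. Embryos were collected at 6 stages, 16 hours (1-cell), 32 hours (2-cell), 48 hours (4-cell), 62 hours (8-cell), 72 hours (morula) and 84 hours (blastocyst) after sperm addition or activation. At each stage there were 3 embryos made by in vitro fertilisation (IVF), B6D2F1 by B6D2F1, and 5 clones. A clone was made from a B6D2F1 recipient oocyte and the nucleus of a B6CBF1 Sertoli cell, which nurses germ cells in the testis. All embryos were cultured in KSOM medium. The way an embryo was made, the strain of its nucleus and, in part, its sex changed together, so their parts in a difference cannot be told apart. Donor nuclei were male, while IVF embryos differed in the Y-linked gene Eif2s3y. In IVF blastocysts it read -5.52 in replicate 1 and 2.24 and 2.06 in replicates 2 and 3.

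The trophectoderm is the outer epithelium of the blastocyst, which implants and forms the embryonic part of the placenta, while the inner cell mass forms the fetus. In outer cells of the morula the Hippo pathway is off, so the coactivator Yap1 enters the nucleus and, with the DNA-binding factor Tead4, switches on Cdx2 and Gata3. These factors, with Eomes, Elf5, Gata2 and the AP-2 proteins Tfap2a and Tfap2c, then maintain the trophoblast programme. Id2 and Hand1 are helix-loop-helix factors, Id2 an early trophectoderm marker and Hand1 a factor required for trophoblast giant cells.

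Promoter sequences from RefSeq (GRCm38.p6), 250 bases before to 50 bases after a transcript start, were matched to 7 of the 10 genes, with 10 promoters in all. None was matched for Tfap2c, Tead4 and Hand1. A set of 4 is shown here because their genes came on at different times in the data: Gata3 and Cdx2 had risen by the morula, and Tfap2a and Eomes passed their rise in clones at the blastocyst. Capitals mark matches on either strand to the letters of 4 motifs: AP-2 was searched as GCCNNNGGC, CDX as TTTATG, TEAD as GGAATG and GATA as AGATAA. The Gata3 promoter lies at chr2:9878551-9878850 on the minus strand and that of Cdx2 at chr5:147307200-147307499 on the minus strand. The Tfap2a promoter shown is chr13:40734871-40735170 on the minus strand, and the Eomes promoter is chr9:118477939-118478238 on the plus strand. The windows shown for Gata3 and Tfap2a are at transcript starts inside the gene. These genes span chr2:9857078-9887953 and chr13:40713802-40738238.
Gata3: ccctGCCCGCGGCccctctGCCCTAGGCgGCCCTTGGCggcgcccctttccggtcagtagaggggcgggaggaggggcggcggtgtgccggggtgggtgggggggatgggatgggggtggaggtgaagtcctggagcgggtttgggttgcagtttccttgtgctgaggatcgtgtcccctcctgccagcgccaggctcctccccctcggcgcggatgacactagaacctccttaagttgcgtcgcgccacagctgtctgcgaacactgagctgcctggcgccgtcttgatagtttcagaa
Cdx2: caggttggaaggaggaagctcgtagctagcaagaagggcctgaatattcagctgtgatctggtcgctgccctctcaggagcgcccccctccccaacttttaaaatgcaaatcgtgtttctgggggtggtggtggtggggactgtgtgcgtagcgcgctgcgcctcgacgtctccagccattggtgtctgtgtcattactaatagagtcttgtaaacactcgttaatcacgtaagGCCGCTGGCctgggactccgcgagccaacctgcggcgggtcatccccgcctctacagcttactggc
Tfap2a: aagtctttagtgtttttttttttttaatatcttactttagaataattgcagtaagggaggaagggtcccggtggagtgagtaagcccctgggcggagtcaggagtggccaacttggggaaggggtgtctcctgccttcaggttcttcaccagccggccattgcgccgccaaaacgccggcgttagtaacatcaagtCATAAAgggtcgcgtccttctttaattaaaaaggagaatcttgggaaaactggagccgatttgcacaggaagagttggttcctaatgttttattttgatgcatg
Eomes: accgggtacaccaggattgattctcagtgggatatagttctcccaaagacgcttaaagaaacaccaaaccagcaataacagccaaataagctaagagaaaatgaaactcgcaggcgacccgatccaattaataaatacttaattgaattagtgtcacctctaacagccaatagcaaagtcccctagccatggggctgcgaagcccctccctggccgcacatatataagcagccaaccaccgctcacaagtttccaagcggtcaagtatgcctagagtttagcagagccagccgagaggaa
The Gata3 promoter shown holds 3 AP-2 matches, at bases -246, -231 and -221 from its transcript start, and that of Cdx2 holds 1, at base -16. The capitals in Tfap2a are CATAAA, the CDX letters read on the other strand, at base -54. None of the 4 motifs was found in this Eomes window, and no matches overlapped in the sequences shown. Over 32851 RefSeq promoters of this length, AP-2 letters were found in 16.6%, CDX letters in 11.9%, TEAD letters in 14.7% and GATA letters in 11.2%. Of the 10 promoters of the trophectoderm factors, 3 held AP-2 letters, 3 CDX letters, 2 TEAD letters and 0 GATA letters.

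The deposited values were read as log2 values, a base that no source names, and were centred for each probe set. A value is therefore relative to the baseline of that probe set, and levels of different genes cannot be set against each other. Where most arrays of a probe set lie within about 0.1 of 0, that set is called near its baseline below. Signal over background was not judged. In whole embryos, fewer trophectoderm cells and less RNA per cell cannot be told apart. Differences are limma estimates ± SE, with Benjamini-Hochberg adjusted p-values across the 18193 genes, called under 0.05. They are clone minus IVF, or later minus earlier stage. The bacterial hybridisation controls added to each array differed between clone and IVF arrays, by -1.02 at the 1-cell stage, 1.27 at the 2-cell, 1.31 at the 4-cell and 0.83 at the 8-cell stage (exact permutation test, two-sided, p = 0.0357 at each, the smallest that 5 against 3 arrays can give, adjusted p = 0.0536 over 6 stages), and by 0.34 at the morula (p = 0.25) and -0.23 at the blastocyst (p = 0.179, exact permutation test). The 1-cell clones were split in these controls, at -0.81, -0.71 and -1.02 in replicates 1 to 3 and 0.35 and 0.50 in replicates 4 and 5. Controls of 1-cell IVF embryos ran from 0.53 to 0.79. In 8-cell clone replicate 4 the Y-linked gene Eif2s3y lay at -5.25, while donor nuclei were male. Differences at the 8-cell stage are therefore also given without that embryo where the text reports them. For steps between stages, "without replicate" means that every embryo of that number was left out at all stages of the fit, and of both series for a difference of steps.

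Against IVF embryos of the same stage, 0 or 1 of the 10 factors passed the test in clones at each stage. With so few arrays in a stage, a factor that did not pass was not shown to be equal in clones and IVF embryos. At the 1-cell stage 1 of 10 passed the test, Id2, with 6.31% of all genes past it. At the 2-cell stage 0 of 10 passed by limma, with 2.37% of all genes called, and at the 4-cell stage 0 of 10 with 2.26%. At the 8-cell stage 1 of 10 passed, Hand1, with 6.62% of all genes. At the morula 0 of 10 passed, with 0.165% of all genes called, and at the blastocyst 0 of 10, with 6.18%. Over all genes, limma's unadjusted p was under 0.05 for 2717 genes at the 2-cell stage, 2541 at the 4-cell stage, 1820 at the morula and 3583 at the blastocyst. The median difference of the 10 factors lay between -0.90 and 0.15 over the 6 stages, and that of all genes between -0.01 and 0.04. The value of -0.90 was that of the 8-cell stage. In 1 fit of all 51 arrays, where all stages share 1 spread, more factors were called. The counts were 2 (1-cell), 1 (2-cell), 2 (4-cell), 4 (8-cell) and 1 (morula). Whether the counts of the factors differ from the shares over all genes was not tested.

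**Figure D1:**
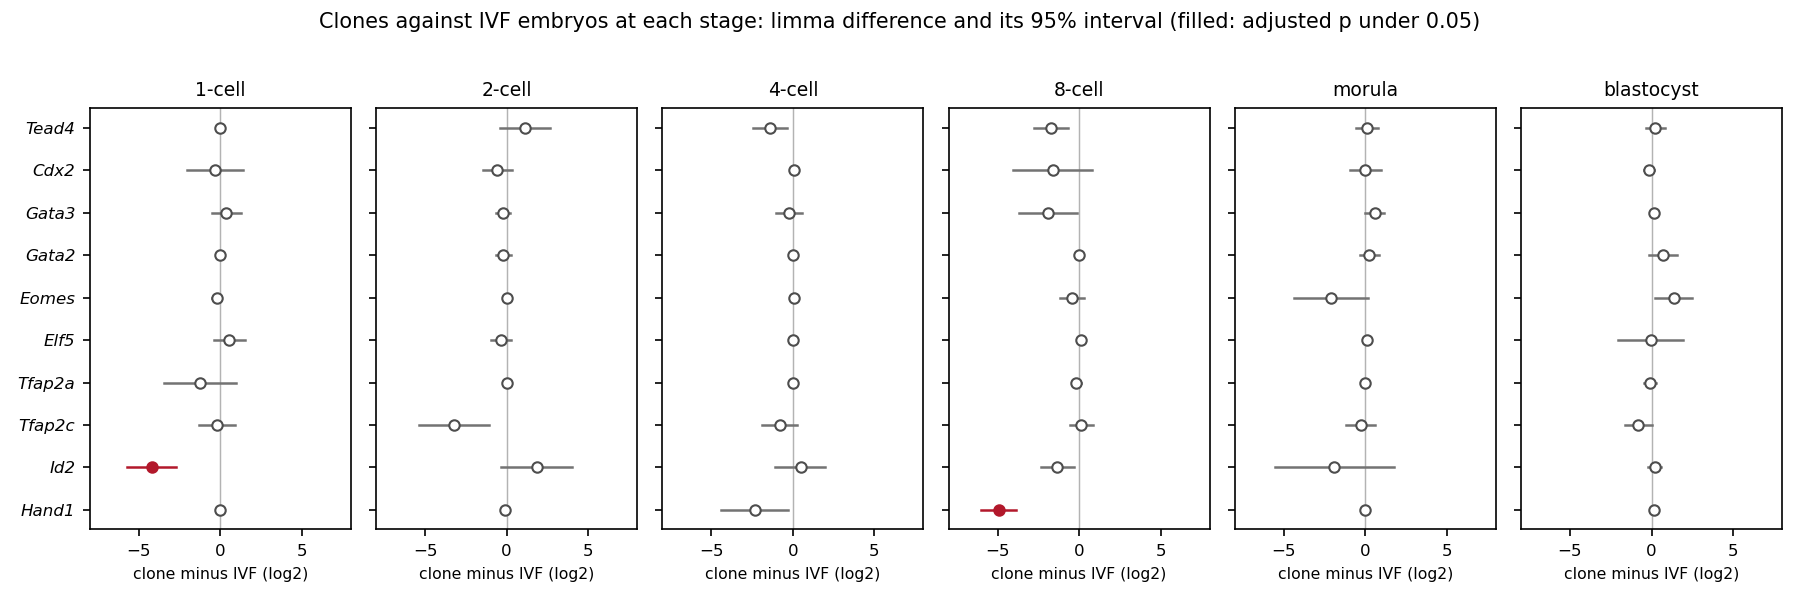
Difference between clones and IVF embryos (log2, horizontal axis) for each of the 10 factors at each stage, with its 95% interval from limma (5 clones, 3 IVF embryos). Filled points passed the test: Id2 at the 1-cell stage at -4.22 and Hand1 at the 8-cell stage at -4.94.

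Through IVF development, 3 of 10 factors changed from the MII oocyte to the 1-cell embryo (30.6% of all genes) and 4 of 10 from the 1-cell to the 2-cell stage (35.9%). From the 2-cell to the 4-cell stage 2 of 10 changed (23.8%), and from the 4-cell to the 8-cell stage 1 of 10 (1.98%). The 8-cell to morula step moved 5 of 10 (17.2%) and the morula to blastocyst step 6 of 10 (22.6%), all of these 6 upwards. From the oocyte to the cloned 1-cell embryo 2 of 10 changed (25.7%). In clones, 4 of 10 changed from the 1-cell to the 2-cell stage (41.3%), 2 of 10 from the 2-cell to the 4-cell stage (29.9%) and 1 of 10 from the 4-cell to the 8-cell stage (6.5%). In clones 3 of 10 changed from the 8-cell stage to the morula (17.4%), and 8 of 10 from the morula to the blastocyst, 7 upwards and 1 downwards (34.5%).

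Whether clones made a step differently from IVF embryos was tested as the clone change minus the IVF change, in 1 fit of all 51 arrays. The 1-cell to 2-cell step differed for 2 of 10 factors, Id2 and Tfap2c, with 11.2% of all genes past this test. For the 2-cell to 4-cell step these were 2 of 10, Tead4 and Hand1 (2.64%), and for the 4-cell to 8-cell step 1 of 10, Hand1 (1.31%). The 8-cell to morula step differed for 3 of 10, Gata3, Tead4 and Hand1 (5.66%), and the morula to blastocyst step for 1 of 10, Eomes (1.62%). These tests share their embryos with the stage comparisons above and with each other. Fits over several stages, here and for the steps above, take 1 spread per gene for all their groups. Where a single group varied more, their SE and p-values do not measure its spread.

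Some of these calls depended on the scaling of the arrays. Quantile normalization of the deposited values once more, which gives every array the same distribution, turned the cloned morula to blastocyst step to -0.19 for Cdx2 (adjusted p = 0.699) and -0.07 for Gata3. It ended the IVF calls of the oocyte to 1-cell step for Gata3 (adjusted p = 0.443) and Tfap2c (adjusted p = 0.507), of the 1-cell to 2-cell step for Tead4 (adjusted p = 0.166) and Id2 (adjusted p = 0.256), and of the morula to blastocyst step for Gata3 (adjusted p = 0.601), Eomes (adjusted p = 0.117) and Id2 (adjusted p = 0.324). The Tfap2c call from the oocyte to the cloned 1-cell embryo ended too (1.71, adjusted p = 0.0568). It also ended the differences of the 1-cell to 2-cell step for Id2 (4.25, adjusted p = 0.082) and Tfap2c (-3.0, adjusted p = 0.0752), and that of the 8-cell to morula step for Tead4 (2.11, adjusted p = 0.0502). Centring each array on its median ended no call of the 10 factors.

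**Figure D2:**
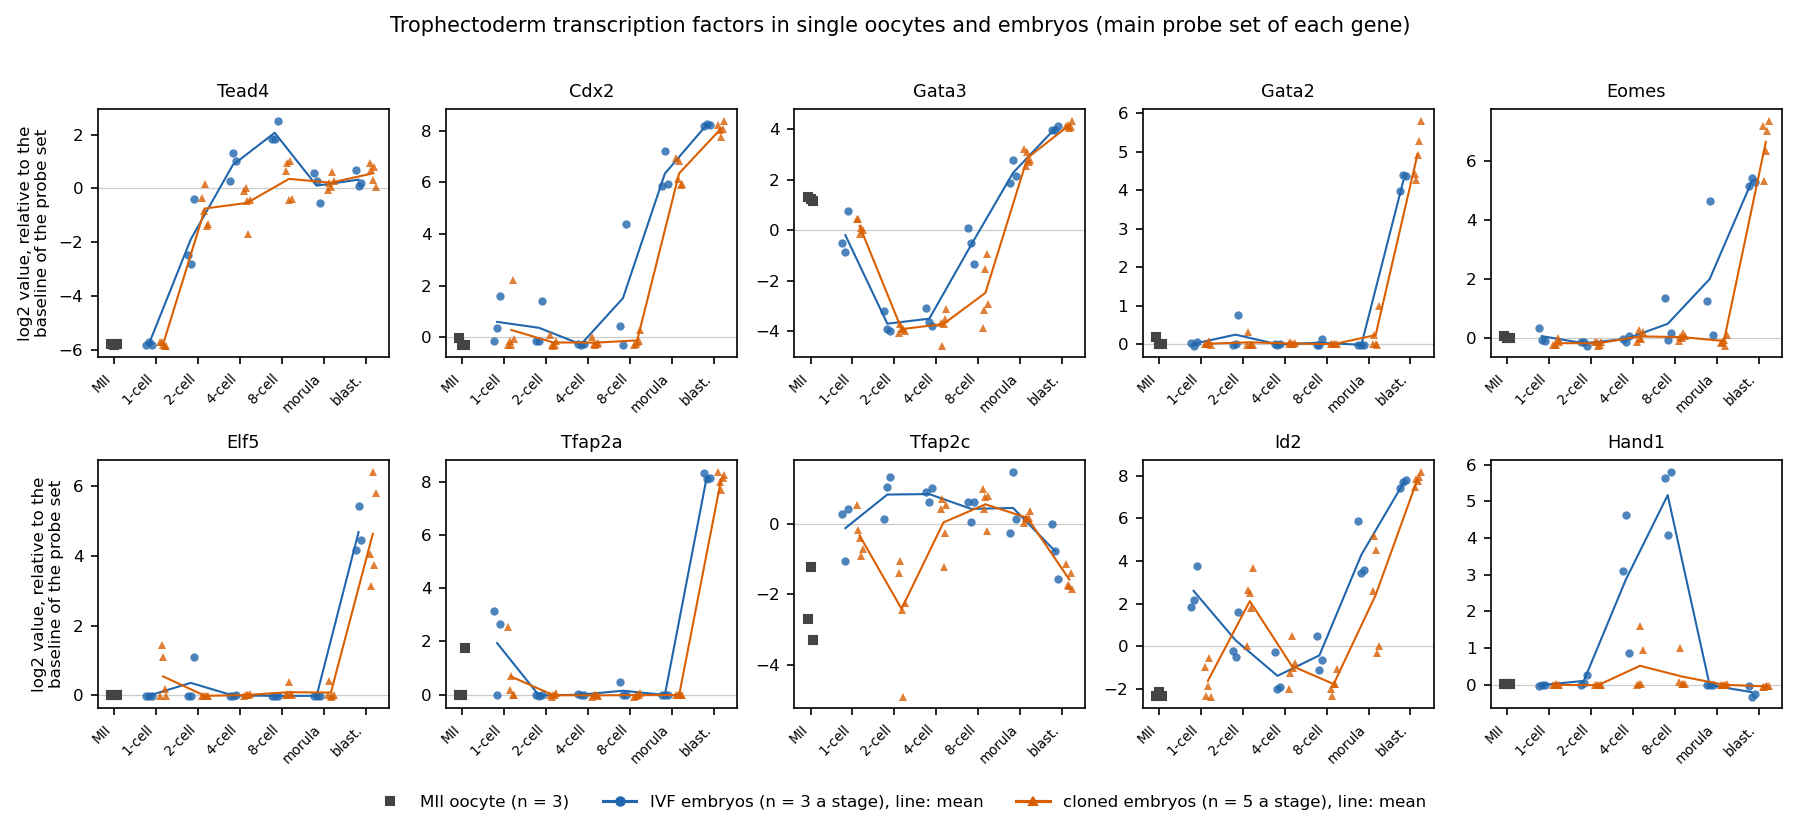
Log2 value of the main probe set of each factor (vertical axis, relative to the baseline of that probe set) in every oocyte (squares), IVF embryo (circles) and clone (triangles) by stage, with lines through group means. Gata2, Eomes, Elf5 and Tfap2a lie near 0 in most arrays before the blastocyst, and Hand1 departs from 0 mainly in 4-cell and 8-cell IVF embryos.

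Tead4 (chr6:128227143-128300813), the DNA-binding partner of Yap1 upstream of Cdx2, rose from the 1-cell to the 2-cell stage in both series. Its values were -5.80, -5.83 and -5.81 in oocytes, -5.84, -5.71 and -5.84 in 1-cell IVF embryos and between -5.85 and -5.73 in 1-cell clones. At the 2-cell stage they were -2.46, -2.82 and -0.40 in IVF embryos and -0.34, -0.85, 0.16, -1.38 and -1.32 in clones. The rise from the 1-cell stage was 3.91 ± 0.49 in IVF embryos (adjusted p = 7.34e-06) and 5.05 ± 0.32 in clones (adjusted p = 5.44e-13), with no overlap between the stages in either series.

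Tead4 rose again in IVF embryos at the 4-cell stage, by 2.76 ± 0.49 (adjusted p = 0.000592; without replicate 2 adjusted p = 0.0776), to 0.27, 1.32 and 1.02. In clones it stood at -0.10, 0.00, -0.45, -1.71 and -0.44, below all 3 IVF embryos, a step of 0.21 ± 0.32 (adjusted p = 0.694). The difference of the step was -2.55 ± 0.57 (adjusted p = 0.00667), and it was lost without replicates 1 (-2.57, adjusted p = 0.0706) or 2 (-2.02, adjusted p = 0.233). The other probe set of Tead4, 1460683_at, did not show this difference. On it 4-cell values were 1.01, 1.51 and 1.60 in IVF embryos and 2.04, 1.38, 0.43, 0.85 and 1.59 in clones, which overlapped. With all 45037 probe sets tested side by side, clones rose on it from the 2-cell stage by 1.42 ± 0.35 (adjusted p = 0.00392, with 25.9% of all probe sets past the test), and the difference of the steps was -0.81 ± 0.49 (adjusted p = 0.609, with 2.01% of probe sets past that test).

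At the 8-cell stage Tead4 values were 1.85, 1.84 and 2.53 in IVF embryos and 0.66, 0.93, -0.42, 1.02 and -0.41 in clones. These groups did not overlap, and their difference of -1.72 ± 0.43 missed the threshold (adjusted p = 0.0651; without clone replicate 4 it was -1.88, adjusted p = 0.0687).

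From the 8-cell stage to the morula Tead4 fell by 1.97 ± 0.49 in IVF embryos (adjusted p = 0.00979; without replicate 1 adjusted p = 0.0789 and without replicate 2 adjusted p = 0.083). In clones the step was -0.14 ± 0.32 (adjusted p = 0.855), and the difference of the steps was 1.83 ± 0.57 (adjusted p = 0.0465), lost when replicate 1, 2, 3 or 5 was left out (1.12 to 2.32, adjusted p from 0.0898 to 0.381). It was also lost with the replicate number as a block (adjusted p = 0.0522) and with all probe sets tested side by side (adjusted p = 0.0615), and without 8-cell clone replicate 4 alone it was 1.99 (adjusted p = 0.0287). The probe set 1460683_at gave a different picture of this step as well. There the values went from 1.98, 2.07 and 2.74 to -0.31, -0.38 and -0.41 in IVF embryos and from 1.42, 1.48, 0.31, 2.48 and 0.73 to -0.23, -0.52, -1.06, -0.11 and -0.44 in clones. Over all probe sets, it fell by 2.63 ± 0.21 in IVF embryos (adjusted p = 9.42e-07, with 11.4% of all probe sets past the test) and fell by 1.75 ± 0.35 in clones (adjusted p = 0.00117, 14.2%). The difference of the steps was 0.88 ± 0.49 on that probe set (adjusted p = 0.365, with 3.55% of probe sets past the test), so both differences of steps of Tead4 rest on 1 of its 2 probe sets.

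Cdx2 (chr5:147300900-147307249), the homeodomain factor that marks the trophectoderm, came on between the 8-cell stage and the morula in both series. In 4-cell IVF embryos it lay at -0.27, -0.28 and -0.27, and at the 8-cell stage at 0.44, -0.30 and 4.40, so 1 of 3 IVF embryos was already high. All 5 clones at the 8-cell stage were low, at -0.28, -0.26, -0.18, -0.15 and 0.27. The groups overlapped, and the difference at that stage was -1.63 ± 1.02 (95% interval -4.06 to 0.80, adjusted p = 0.308; without clone replicate 4 -1.63, adjusted p = 0.374).

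Morula values of Cdx2 were 5.86, 7.20 and 5.95 in IVF embryos and 6.92, 6.13, 6.82, 5.90 and 5.95 in clones. The step from the 8-cell stage was 4.83 ± 0.88 in IVF embryos (adjusted p = 0.00114) and 6.47 ± 0.32 in clones (adjusted p = 1.5e-13). Without IVF replicate 1 the first became 4.53 (adjusted p = 0.0799) and without replicate 2 it became 3.49 (adjusted p = 0.114). At the morula clones differed from IVF embryos by 0.01 ± 0.41 (95% interval -0.96 to 0.98).

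In blastocysts Cdx2 stood at 8.19, 8.27 and 8.23 in IVF embryos and at 8.20, 8.01, 7.74, 8.06 and 8.39 in clones, a difference of -0.15 ± 0.14 (95% interval -0.48 to 0.17, adjusted p = 0.635). The last step was 1.90 ± 0.88 in IVF embryos (adjusted p = 0.134) and a rise of 1.73 ± 0.32 in clones (adjusted p = 0.000168), though normalising the arrays again turned the clone step to -0.19. The other probe set of Cdx2, 1422074_at, left its baseline at the blastocyst, where it was at 1.95, 1.99 and 2.02 in IVF embryos and at 1.05, 1.73, 0.99, 0.85 and 0.06 in clones. All 5 clones lay below all 3 IVF embryos on it. Its rise from the morula was 2.00 ± 0.02 in IVF embryos (adjusted p = 2.04e-18, with 29.9% of all probe sets past the test) and 0.94 ± 0.15 in clones (adjusted p = 4.32e-05, 38.4%). The difference of the steps was -1.06 ± 0.20 (adjusted p = 0.00128, 1.34%), while the direct comparison of blastocysts gave -1.05 ± 0.34 (adjusted p = 0.181, with 3.36% of probe sets past that test). The main probe set gave -0.16 ± 0.80 for the same difference of the steps, so the 2 probe sets of Cdx2 disagree on whether clones fell short.

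Gata3 (chr2:9857078-9887953), a zinc finger factor that acts beside Cdx2 downstream of Tead4, has 1 probe set. It was present in the oocyte at 1.33, 1.24 and 1.18, dropped to between -4.07 and -3.21 in all 8 embryos at the 2-cell stage and then climbed again. From the 1-cell to the 2-cell stage it fell by 3.50 ± 0.40 in IVF embryos (adjusted p = 2.8e-06) and fell by 4.08 ± 0.35 in clones (adjusted p = 1.97e-10). An earlier fall from the oocyte was -1.44 ± 0.40 in IVF embryos (adjusted p = 0.0109) and -1.07 ± 0.16 in clones (adjusted p = 0.0036). The first of these was lost without replicate 1 (-1.25, adjusted p = 0.12) or 2 (-1.12, adjusted p = 0.221).

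At the 8-cell stage Gata3 was at 0.08, -0.48 and -1.32 in IVF embryos and at -3.86, -3.14, -1.51, -0.94 and -2.91 in clones. Gata3 rose from the 4-cell stage by 2.92 ± 0.40 in IVF embryos (adjusted p = 0.00185) and 1.23 ± 0.35 in clones (adjusted p = 0.0321). The IVF call was lost without replicate 1 (adjusted p = 0.0551) or 2 (adjusted p = 0.0612), and the clone call without replicate 2 (adjusted p = 0.105), 3 (adjusted p = 0.224) or 4 (adjusted p = 0.18), or without 8-cell clone replicate 4 alone (0.85, adjusted p = 0.0998). The difference of these steps was -1.69 ± 0.55 (adjusted p = 0.135), and without that 1 clone it was -2.07 and passed (adjusted p = 0.0209). Clones and IVF embryos at the 8-cell stage differed by -1.90 ± 0.74 (95% interval -3.66 to -0.14, adjusted p = 0.154; without clone replicate 4 -2.28, adjusted p = 0.0995).

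Morula values of Gata3 were 1.89, 2.79 and 2.17 in IVF embryos and 3.22, 2.56, 3.10, 2.69 and 2.77 in clones. From the 8-cell stage the rise was 2.86 ± 0.40 in IVF embryos (adjusted p = 0.00011) and 5.34 ± 0.35 in clones (adjusted p = 5.59e-11), and it was larger in clones by 2.48 ± 0.55 (adjusted p = 0.00408). Without replicate 1 that difference became 1.52 (adjusted p = 0.235), and without 8-cell clone replicate 4 alone, whose Eif2s3y value stood apart, it was 2.86 (adjusted p = 0.000199). Blastocysts lay close together, at 3.98, 3.99 and 4.13 in IVF embryos and at 4.15, 4.17, 4.05, 4.11 and 4.35 in clones, a difference of 0.13 ± 0.07 (95% interval -0.04 to 0.31). The last step was a rise of 1.75 ± 0.40 in IVF embryos (adjusted p = 0.00521; without replicate 1 adjusted p = 0.0737 and without replicate 2 adjusted p = 0.0569) and of 1.30 ± 0.35 in clones (adjusted p = 0.00587), though normalising the arrays again turned the clone step of Gata3 to -0.07.

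Gata2 (chr6:88193891-88207032), which directs trophoblast and placental hormone genes, was near its baseline in most arrays until the blastocyst. Higher values included 0.76 in an IVF and 0.31 in a cloned 2-cell embryo, 0.98 and 0.23 in cloned morulae and 0.17 in an oocyte. Blastocyst values were 3.97, 4.40 and 4.36 in IVF embryos and 4.42, 4.26, 4.91, 5.29 and 5.81 in clones. The rise from the morula was 4.26 ± 0.16 in IVF embryos (adjusted p = 4.67e-11) and 4.71 ± 0.20 in clones (adjusted p = 8.33e-16). Clones and IVF blastocysts overlapped on this probe set and differed by 0.69 ± 0.37 (95% interval -0.18 to 1.57, adjusted p = 0.382). On the other probe set of Gata2, 1428816_a_at, they did not overlap, at 3.28, 3.90 and 3.77 in IVF embryos and 4.37, 4.17, 4.41, 4.90 and 4.88 in clones, a difference of 0.90 ± 0.22 that missed the threshold (adjusted p = 0.0956).

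Eomes (chr9:118478186-118486132), a T-box factor of the trophoblast lineage, was the factor whose step from the morula to the blastocyst differed between the series. Its main probe set read 1.35, -0.06 and 0.17 in 8-cell IVF embryos and 1.26, 4.65 and 0.10 in IVF morulae. All 5 cloned morulae lay at the baseline, at -0.15, -0.12, -0.07, -0.25 and 0.11, with 1 of them just above the lowest IVF morula. The difference at the morula was -2.10 ± 0.95 (95% interval -4.36 to 0.16, adjusted p = 0.553), with a wide spread among IVF embryos.

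In blastocysts Eomes read 5.16, 5.44 and 5.30 in IVF embryos and 7.20, 5.32, 6.33, 7.03 and 7.38 in clones, so 4 of 5 clones lay above all IVF embryos. That difference was 1.35 ± 0.48 (95% interval 0.22 to 2.49, adjusted p = 0.174). Without clone replicate 2, the lowest clone, it was 1.69 (adjusted p = 0.0354). The rise from the morula was 3.30 ± 0.75 in IVF embryos (adjusted p = 0.00533) and 6.75 ± 0.22 in clones (adjusted p = 4.35e-18). The IVF rise was lost without replicate 1 (adjusted p = 0.134) or 3 (adjusted p = 0.173).

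The Eomes step from morula to blastocyst was larger in clones by 3.45 ± 0.66 (adjusted p = 0.00122). Leaving out any 1 replicate number gave between 2.52 and 4.49, each past the threshold. The SD was 2.37 in IVF morulae, 0.14 in IVF blastocysts, 0.13 in cloned morulae and 0.84 in cloned blastocysts. The fit shares 1 spread over all groups, so this SE does not measure the wide spread of IVF morulae. The other probe set, 1426001_at, read 1.06, 4.14 and 0.38 in IVF morulae and between -0.03 and 0.02 in cloned morulae. In blastocysts it read 4.10, 5.20 and 5.54 in IVF embryos and 6.43, 5.45, 5.47, 6.26 and 6.0 in clones. Its step was larger in clones by 2.84 ± 0.60 (adjusted p = 0.00468 over all probe sets), in the same direction as the main probe set.

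Elf5 (chr2:103412098-103450989), an ETS factor that reinforces Cdx2 and Eomes in trophoblast stem cells, was near its baseline until the blastocyst in most embryos. Higher values included 1.45 and 1.09 in cloned 1-cell embryos, 1.09 in an IVF 2-cell embryo, 0.39 in a cloned 8-cell embryo and 0.42 in a cloned morula. Blastocysts read 4.17, 5.44 and 4.45 after IVF and 4.06, 3.15, 6.43, 3.74 and 5.81 in clones, which overlapped and spread more widely among clones. Elf5 rose from the morula by 4.70 ± 0.28 in IVF embryos (adjusted p = 9.94e-09) and 4.57 ± 0.40 in clones (adjusted p = 1.88e-09). Clones and IVF blastocysts differed by -0.05 ± 0.83 (95% interval -2.03 to 1.93), an interval that leaves room for large differences either way. The other probe set of Elf5, 1419556_at, stayed near its baseline, with values of 0.83 and 0.40 in the pair of cloned blastocysts that were highest on the main probe set.

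Tfap2a (chr13:40713802-40738238), an AP-2 factor of trophoblast, rose at the blastocyst in both series. Its main probe set was near 0 from the 2-cell stage to the morula in clones and, except for 1 embryo at 0.48 at the 8-cell stage, in IVF embryos. Blastocysts read 8.32, 8.09 and 8.13 after IVF and 8.38, 7.98, 7.67, 8.13 and 8.23 in clones, a difference of -0.10 ± 0.16 (95% interval -0.48 to 0.28). Tfap2a rose from the morula by 8.19 ± 0.60 in IVF embryos (adjusted p = 1.21e-07) and 8.09 ± 0.28 in clones (adjusted p = 1.13e-17).

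Earlier, Tfap2a varied between single 1-cell embryos, at 3.16, -0.01 and 2.66 after IVF and 2.53, 0.18, 0.69, 0.00 and -0.02 in clones. Its fall to the 2-cell stage in IVF embryos, by 1.97 ± 0.60 (adjusted p = 0.0167), was lost without replicate 1 (adjusted p = 0.29) or 3 (adjusted p = 0.22). The probe set 1421996_at separated the series at the 2-cell stage. It read -1.54, -1.43 and -1.54 in IVF embryos and -0.28, 0.23, 1.07, 0.96 and 2.74 in clones, with no overlap. At the 4-cell stage it read -1.49, 0.00 and -1.37 in IVF embryos and -0.27, -1.35, -1.37, -1.35 and -1.46 in clones. The series were apart on it again at the morula, between -0.25 and 1.07 in IVF embryos and between -1.95 and -1.13 in clones. That morula difference was not called.

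Clone and IVF steps of Tfap2a on this probe set differed by 2.98 ± 0.66 from the 1-cell to the 2-cell stage (adjusted p = 0.0018, with 8.54% of all probe sets past the test) and by -2.65 ± 0.66 from the 2-cell to the 4-cell stage (adjusted p = 0.0197, 2.01%). On the main probe set the same differences were 1.28 ± 0.60 (adjusted p = 0.191) and -0.03 ± 0.60. The direct comparison at the 2-cell stage on 1421996_at was 2.45 ± 0.65 (adjusted p = 0.172).

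Tfap2c (chr2:172545678-172558622), an AP-2 factor already present in the early embryo that acts on Cdx2, had lower values in 2-cell clones on all 3 probe sets. The difference passed the test on 2 of these 3, with all probe sets tested side by side. Main probe set values were 0.12, 1.04 and 1.32 in IVF 2-cell embryos and -1.41, -1.06, -2.45, -4.90 and -2.24 in clones, with no overlap. Their difference of -3.24 ± 0.89 had an adjusted p of 0.139. The probe set 1418147_at read -0.36, 0.88 and 0.17 in IVF embryos and -2.27, -2.32, -3.97, -3.88 and -3.88 in clones. The probe set 1436392_s_at read -0.35, 0.44 and 0.03 in IVF embryos and -2.49, -2.29, -3.68, -3.62 and -3.27 in clones. With all probe sets tested side by side, of which 1.43% passed, the differences were -3.49 ± 0.56 (adjusted p = 0.0448) and -3.11 ± 0.40 (adjusted p = 0.0249), and that of the main probe set had an adjusted p of 0.185.

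The steps of Tfap2c differed as well. From the 1-cell to the 2-cell stage it fell in clones by 2.08 ± 0.48 (adjusted p = 0.000682), while the IVF step was 0.95 ± 0.58 (adjusted p = 0.259). The difference was -3.03 ± 0.77 (adjusted p = 0.0058), and -2.75 without replicate 2 (adjusted p = 0.0618). On the other probe sets, 1418147_at and 1436392_s_at, it was -3.33 ± 0.59 (adjusted p = 0.00012) and -2.98 ± 0.35 (adjusted p = 1.05e-07). Clones then rose by 2.45 ± 0.48 to the 4-cell stage (adjusted p = 0.000228), to 0.42, 0.71, -1.22, -0.25 and 0.53, beside 0.89, 0.61 and 1.02 in IVF embryos. Hybridisation controls were higher on clone arrays at the 2-cell stage, as given above, and their part in the Tfap2c difference on the further probe sets was not tested.

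Tfap2c changed late as well. In cloned blastocysts it fell from the morula by 1.75 ± 0.48 (adjusted p = 0.00627), to -1.13, -1.75, -1.76, -1.41 and -1.86, and IVF blastocysts read 0.00, -0.77 and -1.56. Their difference was -0.80 ± 0.35 (95% interval -1.64 to 0.04, adjusted p = 0.275). IVF means went down too, from 0.45 at the morula to -0.78 at the blastocyst. That IVF step was not called, but with quantile normalization it was (-2.19, adjusted p = 0.0412 by limma). The difference between the clone and IVF steps was not called. The clone fall was seen on the main probe set: on 1418147_at the step was -0.34 ± 0.38 (adjusted p = 0.524) and on 1436392_s_at it was -0.51 ± 0.25 (adjusted p = 0.107). On the main probe set the oocyte was low, at -2.69, -1.22 and -3.29, and rose to the 1-cell stage by 2.27 ± 0.58 in IVF embryos (adjusted p = 0.00674) and by 2.06 ± 0.53 in clones (adjusted p = 0.032). The IVF call was lost without replicate 1 (adjusted p = 0.135) or 3 (adjusted p = 0.213), and the clone call without oocyte replicate 1 (adjusted p = 0.105) or 3 (adjusted p = 0.1) or without clone replicate 1, 2, 3 or 5 (adjusted p from 0.0518 to 0.0666). The probe set 1418147_at gave 0.20 and 0.03 for these rises, neither past the threshold.

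**Figure D3:**
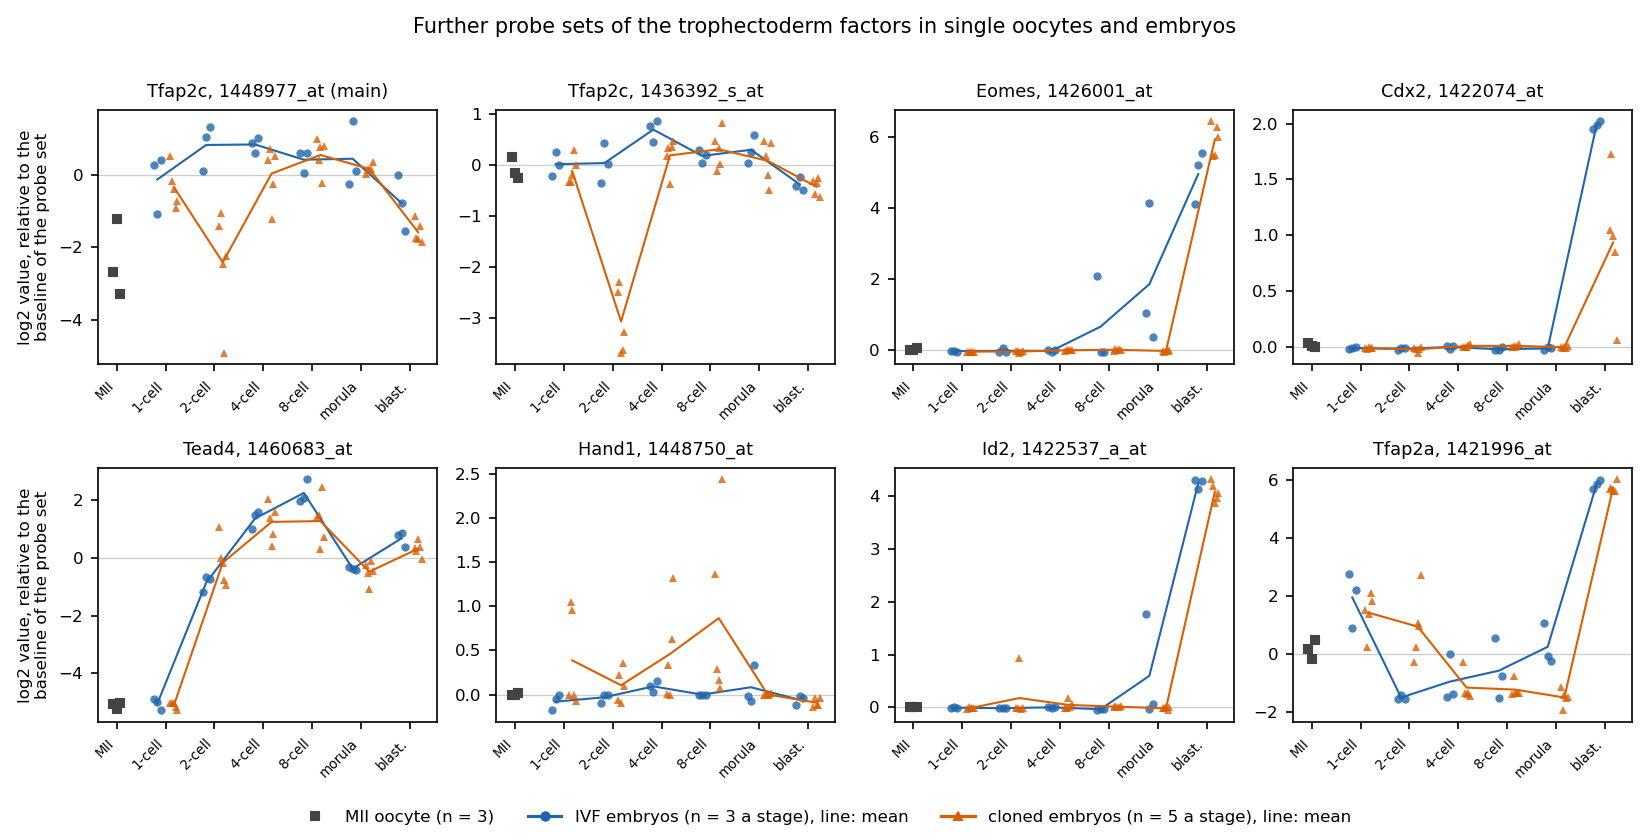
Log2 values (vertical axis, relative to the baseline of each probe set) of the main probe set of Tfap2c and 7 further probe sets of 7 factors in every oocyte and embryo by stage. Cloned 2-cell embryos lie below IVF embryos for Tfap2c, cloned blastocysts lie below IVF blastocysts for Cdx2 1422074_at, and IVF values of Hand1 1448750_at stay near 0 at the 8-cell stage.

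Id2 (chr12:25093799-25096092), an inhibitor of basic helix-loop-helix factors, was the factor that passed the test between clones and IVF embryos at the 1-cell stage. It read -2.33, -2.16 and -2.33 in oocytes, 1.82, 2.18 and 3.78 in IVF 1-cell embryos and -0.97, -2.35, -1.88, -0.56 and -2.36 in clones. All clones lay below all IVF embryos, by -4.22 ± 0.63 (adjusted p = 0.0143), and the difference passed without any 1 of the 8 embryos (adjusted p from 0.0215 to 0.0469). From the oocyte the change was 4.87 ± 0.73 in IVF embryos (adjusted p = 7.75e-05) and 0.65 ± 0.47 in clones (adjusted p = 0.334). With the hybridisation controls as a covariate the Id2 difference was -3.97 (adjusted p = 0.104), and with the replicate number as a block it was -4.33 (adjusted p = 0.176).

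At the 2-cell stage the Id2 values of the groups overlapped. Clones read -0.01, 2.64, 2.49, 1.78 and 3.68 and IVF embryos -0.24, -0.51 and 1.59. Clones rose from the 1-cell stage by 3.74 ± 0.80 (adjusted p = 0.000327), and IVF embryos fell by 2.31 ± 0.73 (adjusted p = 0.021). The IVF fall was lost without replicate 2 (adjusted p = 0.2) or 3 (adjusted p = 0.0862) and in the fit of all arrays (adjusted p = 0.0514). The difference of the steps was 6.05 ± 1.19 (adjusted p = 0.00039), and that of the 2-cell groups, which overlapped, was 1.84 ± 0.90 (95% interval -0.32 to 4.00, adjusted p = 0.444). From the 2-cell to the 4-cell stage Id2 in clones fell by 3.04 ± 0.80 (adjusted p = 0.00464). These early changes were seen on the main probe set of Id2. On 1422537_a_at the difference of the first step was 0.20 ± 0.29. That probe set left its baseline at the blastocyst and, before it, in single embryos, up to 1.77 in an IVF morula and 0.94 in a cloned 2-cell embryo.

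Late in development the main probe set of Id2 rose in both series. Morulae read 5.87, 3.41 and 3.58 after IVF and 2.59, 5.18, 4.52, -0.30 and 0.00 in clones, so 2 of 5 cloned morulae were still close to 8-cell values, which ran from -2.32 to -1.05 in clones. The difference at the morula was -1.89 ± 1.52 (95% interval -5.52 to 1.73, adjusted p = 0.827). The rise from the 8-cell stage was 4.72 ± 0.73 in IVF embryos (adjusted p = 0.000296) and 4.17 ± 0.80 in clones (adjusted p = 0.000543). Blastocysts read 7.41, 7.71 and 7.81 after IVF and 7.48, 7.83, 7.74, 7.94 and 8.19 in clones, a difference of 0.19 ± 0.17 (95% interval -0.20 to 0.59). The last rise was 3.35 ± 0.73 in IVF embryos (adjusted p = 0.00405; without replicate 2 adjusted p = 0.13 and without replicate 3 adjusted p = 0.0759) and 5.44 ± 0.80 in clones (adjusted p = 9.22e-06).

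Hand1 (chr11:57828713-57832147), a basic helix-loop-helix factor of trophoblast giant cells, showed a pulse in IVF embryos at the 4-cell and 8-cell stages on its main probe set. IVF embryos read 3.10, 4.62 and 0.86 at the 4-cell stage, 5.62, 4.07 and 5.81 at the 8-cell stage and -0.01, -0.01 and 0.00 at the morula. Clones read 0.00, 0.01, 1.60, 0.02 and 0.96 at the 4-cell stage and 0.07, 1.01, 0.01, 0.02 and 0.02 at the 8-cell stage. At the 8-cell stage all clones lay below all IVF embryos, by -4.94 ± 0.46 (adjusted p = 0.0041). The difference passed without any 1 of the 8 embryos, and without clone replicate 4 it was -4.89 (adjusted p = 0.012).

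In IVF embryos Hand1 rose by 2.76 ± 0.64 from the 2-cell to the 4-cell stage (adjusted p = 0.00485; without replicate 1 adjusted p = 0.179 and without replicate 2 adjusted p = 0.0721) and fell by 5.17 ± 0.64 from the 8-cell stage to the morula (adjusted p = 3.9e-05). The SD of Hand1 was 1.89 in 4-cell IVF embryos and 0.01 in IVF morulae, a range that the 1 spread of these fits does not measure. Clone steps differed from IVF steps by -2.23 ± 0.57 to the 4-cell stage (adjusted p = 0.0223), -2.60 ± 0.57 to the 8-cell stage (adjusted p = 0.0118) and 4.94 ± 0.57 to the morula (adjusted p = 1.68e-07). The first was lost without replicate 1 (adjusted p = 0.302), 2 (-1.20, adjusted p = 0.367) or 4 (adjusted p = 0.076), and the next without replicate 1 (adjusted p = 0.173), 3 (-0.95, adjusted p = 0.558) or 5 (adjusted p = 0.0561). The last passed without any 1 replicate number.

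The other Hand1 probe set, 1448750_at, did not show the pulse. It read 0.00 in all 3 IVF embryos at the 8-cell stage and 1.37, 0.29, 0.16, 0.07 and 2.44 in clones, a difference of 0.86 ± 0.58 in the other direction (adjusted p = 0.306, with 8.01% of all probe sets past the test). With the hybridisation controls as a covariate the difference on the main probe set was -4.68 (adjusted p = 0.175), and with the replicate number as a block -4.80 (adjusted p = 0.178). In blastocysts the main probe set of Hand1 read -0.03, -0.32 and -0.25 after IVF and between -0.05 and -0.04 in clones. Their difference was not called, but without IVF replicate 1 it was 0.24 and passed (adjusted p = 0.0129 by limma).

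Across all 51 arrays some pairs of factors followed each other closely. Pearson's r between main probe sets, a description over arrays that share stages, was 0.96 for Gata2 with Elf5, 0.95 for Gata2 with Tfap2a and 0.94 for Gata2 with Eomes. Cdx2 followed Gata3 (r = 0.84) and Id2 (r = 0.83) most closely among the factors, and Eomes at r = 0.76. Id2 correlated with Gata2 at r = 0.79 and with Gata3 at r = 0.65. Tead4 ran from r = 0.01 with Gata3 to r = 0.39 with Cdx2. Tfap2c correlated with Cdx2 at r = -0.06 and with Gata3 at r = -0.16, and Hand1 correlated with Cdx2 at r = -0.19 and with Gata3 at r = -0.22.

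Over all named genes, except those whose symbol is only a clone or locus number, the genes most like each factor over the 51 arrays were as follows. Nek6, Serpinb6c and Cmbl were most like Cdx2 (r of 0.968, 0.961 and 0.955), and Tpp1, Ctnna1 and Ppp4r1 most like Gata3 (0.93, 0.913 and 0.911). Nynrin, Hebp1 and Susd2 followed Gata2 (0.986, 0.982 and 0.982), Arhgap9, Gjb5 and Dmkn followed Eomes (0.969, 0.964 and 0.952), and Dhrs4, Syne1 and Serpinb6b followed Elf5 (0.963, 0.961 and 0.961). The nearest genes to Tfap2a were Ppp1r14d, Fhod1 and Cln6 (0.978, 0.971 and 0.966), and to Tead4 Timm22, Flvcr2 and Emc1 (0.975, 0.962 and 0.961). Slc25a11 was nearest to Id2 (0.884) and Dynap to Hand1 (0.898). Tfap2c had no close match, with Noc4l highest at 0.709.

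Single clones did not rank the same way in every factor. Among 5 cloned morulae, replicate 4 was lowest in 6 of the 10 factors and replicate 5 highest in 5. Among 5 cloned blastocysts, replicate 5 was highest in 5 factors and replicate 2 lowest in 4. Some of these ranks rest on very small differences near the baseline. In cloned morulae Tfap2a ran from -0.03 to 0.00, Hand1 from -0.01 to 0.02 and Eomes from -0.25 to 0.11. Hand1 ran from -0.05 to -0.04 in cloned blastocysts. The counts therefore do not show an embryo low or high across all factors. Replicate numbers of different stages belong to different embryos.

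The genes around the factors were followed in lists chosen from general knowledge. Of 18 measured Hippo and Notch genes, which control Tead4 and Cdx2 activity, 1 was higher in clones at the 8-cell stage, where 6.62% of all genes were called, and 2 at the blastocyst, where 6.18% were called, with 0 called by limma at the other 4 stages. The 8-cell count is near the share over all genes. Yap1, the coactivator that Hippo signalling restrains, was higher by 0.92 ± 0.19 at the 8-cell stage (adjusted p = 0.0413; 0.98 without clone replicate 4, adjusted p = 0.054, and 0.89 after median centring of the arrays, adjusted p = 0.0508) and by 0.73 ± 0.11 at the blastocyst (adjusted p = 0.0171). Sav1, a scaffold of the Hippo kinases, was higher by 0.64 ± 0.14 at the blastocyst (adjusted p = 0.0444), and Amot, an adaptor that holds Yap1 outside the nucleus, differed by -1.47 ± 0.36 (adjusted p = 0.0686). The list's median difference was 0.05 at the 8-cell stage and 0.11 at the blastocyst, beside 0.04 and -0.01 over all genes.

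Among 21 measured effector genes of the trophectoderm, which build its keratin network, junctions and pumps, 3 were higher in clones at the 1-cell stage (6.31% of all genes called), 1 at the 2-cell stage (2.37%) and 1 at the 4-cell stage (2.26%). At the blastocyst (6.18%) 1 was higher, the desmosome gene Dsp by 0.56 ± 0.10 (adjusted p = 0.0271, and 0.454 with quantile normalization), and 1 lower, the endocytic receptor gene Lrp2 at -1.42 ± 0.18 (adjusted p = 0.0108). The 1-cell calls were the polarity gene Pard6b at 2.18 ± 0.23, the cadherin gene Cdh1 at 2.13 ± 0.30 and the aquaporin gene Aqp9 at 1.55 ± 0.22 (adjusted p from 0.00566 to 0.0135). From the 8-cell stage to the morula 9 effector genes rose and 1 fell in IVF embryos (17.2% of all genes called), and 7 rose and 1 fell in clones (17.4%). From the morula to the blastocyst 10 rose in IVF embryos (22.6%), and 12 rose and 1 fell in clones (34.5%). With quantile normalization this last step had 4 rising and 3 falling in IVF embryos and 6 rising and 3 falling in clones. The median step to the blastocyst was 1.77 in IVF embryos and 1.32 in clones, beside -0.05 and -0.07 over all genes. With quantile normalization the IVF median was 0.49, beside -0.01 over all genes. Lrp2 rose by 8.35 ± 0.34 to the IVF morula and by 7.06 ± 0.50 to the cloned morula, and the keratin gene Krt18 by 4.44 ± 0.53 and 5.40 ± 0.77 to the blastocyst (2.01 with quantile normalization in IVF embryos, adjusted p = 0.0526).

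Of 9 measured later trophoblast genes 1 differed between clones and IVF embryos at 1 stage, Tpbpa by 0.37 ± 0.06 at the 8-cell stage (adjusted p = 0.0215, with 6.62% of all genes called; without clone replicate 4 adjusted p = 0.041). Of 17 factors of the same families, 1 was lower in clones at the 1-cell stage, Tfap2e at -0.82 ± 0.18 (adjusted p = 0.0453, with 6.31% of all genes called, and 0.0667 with quantile normalization). At the 8-cell stage Elf3 was higher by 1.60 ± 0.07 (adjusted p = 0.000434) and Gata4, a factor of primitive endoderm, lower at -4.27 ± 0.53 (adjusted p = 0.00997), and both passed without clone replicate 4 (1.60, adjusted p = 0.00204, and -4.16, adjusted p = 0.0237). At the blastocyst Gata6, also of primitive endoderm, was higher by 0.73 ± 0.14 (adjusted p = 0.0303).

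Inner cell mass genes, the markers of the other lineage of the blastocyst, were lower in clones in part at 3 stages. Of 12 measured, 3 had lower values in clones at the 4-cell stage (2.26% of all genes called), 5 at the 8-cell stage (6.62%) and 2 at the blastocyst (6.18%), 0 were higher at any of these stages, and the others did not pass. Over all genes, calls were also more often lower in clones. These were 328 lower and 84 higher at the 4-cell stage, 813 and 391 at the 8-cell stage, and 608 and 517 at the blastocyst. Hybridisation controls differed at the 4-cell and 8-cell stages, and their part in the counts of this list was not tested. Without clone replicate 4 the 8-cell count was 3, with 4.82% of all genes called. With quantile normalization the counts were 2, 3 and 2. At the blastocyst these were Sall4 at -0.55 ± 0.07 (adjusted p = 0.0106) and Klf2 at -1.38 ± 0.26 (adjusted p = 0.0316), both factors of the pluripotent state. The list's median difference was -1.14 at the 4-cell stage, -1.10 at the 8-cell stage, -1.0 at the morula and -0.85 at the blastocyst, beside medians of all genes between -0.01 and 0.04. In blastocysts the mean of its 12 genes ran from 1.53 to 1.75 after IVF and from 0.36 to 1.28 in clones. Whether the share of inner cells differed was not tested.

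**Figure D4:**
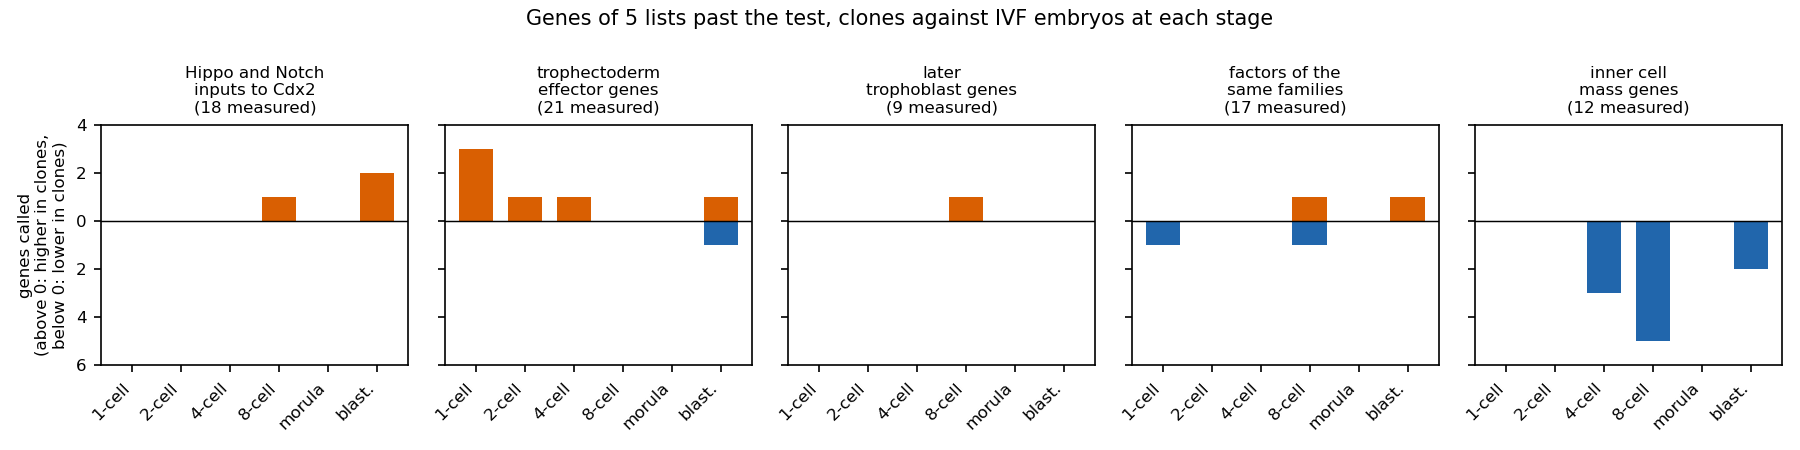
Number of genes past the test between clones and IVF embryos at each stage (vertical axis: bars above 0 are genes higher in clones, bars below 0 genes lower in clones), for 5 lists. Of 12 inner cell mass genes, 3, 5 and 2 were lower in clones at the 4-cell, 8-cell and blastocyst stages.

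Markers of other cells bear on what the arrays hold. The 6 trophectoderm markers Krt8, Krt18, Krt7, Krt19, Aqp3 and Fgfr2 had a mean of 4.16 to 4.27 in IVF blastocysts and 3.49 to 4.21 in cloned blastocysts, above -2.33 to -1.46 in IVF and -2.20 to -0.95 in cloned 1-cell embryos, and 0 of 6 was called between clones and IVF embryos at any stage by limma, though 1 was lower in cloned blastocysts with quantile normalization. The mean of 12 Sertoli cell markers ran from 0.59 to 1.13 in cloned morulae and from -0.25 to -0.22 in IVF morulae, and from 0.72 to 1.19 in cloned and 0.01 to 0.31 in IVF blastocysts. The median difference of the 12 was 0.01 at both stages. Of these 12, 1 was called at the morula (0.165% of all genes), the X-linked homeobox gene Rhox5, higher by 8.07 ± 0.38 (adjusted p = 0.000823), and 1 at the blastocyst (6.18%), Aard, higher by 2.38 ± 0.43 (adjusted p = 0.0276). At the 8-cell stage the 1 call was Gata4, which was lower. The mean of 7 cumulus cell markers ran from -0.58 to -0.44 in cloned and -0.68 to -0.39 in IVF blastocysts. The part of such cells in the values of the trophectoderm factors was not tested.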

How the data were processed

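Gene expression was measured in single mouse oocytes and embryos on 51 arrays, after 2 rounds of cRNA amplification per the labels. The authors deposited values made with RMA, per the submitters' processing notes, with no version given; they were read as log2, the scale RMA returns, since no source names the log base of the deposited values. In 94.3% of the 45101 probe sets exactly 1 array is at 0, so values had been centred per probe set. Array medians lie between -0.07 and 0.07. After leaving out 64 control probe sets, 34945 had 1 gene symbol, 932 several and 9160 none. Each of 18193 genes is represented by its probe set with the largest SD. No filter or further normalization was used. The 23 comparisons were fitted in R 4.3.3 by limma 3.58.1 with lmFit and eBayes: clones against IVF embryos on the 8 arrays of a stage, IVF steps on 21 arrays, clone steps on 30, the oocyte to cloned 1-cell step on 8, and differences of steps on all 51. Intervals are 95% intervals from the same fits. Array number, not read depth, limits precision.

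All 10 factors are named in every comparison, with up to 3 genes of each further list and the 3 genes most correlated with each factor. The factors, lists, motifs and tests were chosen with earlier results of these data known, so their counts are descriptions. The fit was tested on simulated data. Alternatives were array scaling, the choice of probe set, a filter on SD, 1 fit of all arrays, hybridisation controls, a replicate block and leaving out replicates: each embryo in turn for comparisons within a stage and from the oocyte to the cloned 1-cell embryo, and each replicate number at all stages for other steps. Leaving out 8-cell clone replicate 4 alone, and other scalings for the lists, were added after seeing the data. Gene positions and promoters are from RefSeq GRCm38.p6.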

Additional observations from a re-analysis of the deposited data

Results flagged for a closer look

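In 11 of the 60 groups of 5 clones, 1 embryo stood apart from the other 4 by Dixon's criterion, which chance meets in about 1 group of 20, and in 6 of the 11 the other clones lay within 0.1 of each other. These embryos stood out only against the other 4 clones of their group, and several of the values were near 0. Cdx2 was highest in 1-cell clone replicate 4 at 2.23, in 4-cell clone replicate 1 at 0.00 and in 8-cell clone replicate 5 at 0.27. Gata2 was highest in 1-cell clone replicate 4 at 0.09, in 2-cell clone replicate 2 at 0.31 and in cloned morula replicate 5 at 0.98. Tfap2a was highest in 1-cell clone replicate 1 at 2.53, and Hand1 in 8-cell clone replicate 2 at 1.01. Elf5 was highest in 8-cell clone replicate 3 at 0.39 and in cloned morula replicate 2 at 0.42. Tead4 was lowest in 4-cell clone replicate 4 at -1.71.

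The step between stages differed between clones and IVF embryos, by the interaction test in limma, in 9 cases. For the 1-cell to 2-cell step the difference was 6.05 for Id2 and -3.03 for Tfap2c. For the 2-cell to 4-cell step it was -2.55 for Tead4 and -2.23 for Hand1, and for the 4-cell to 8-cell step -2.60 for Hand1. For the 8-cell to morula step it was 2.48 for Gata3, 1.83 for Tead4 and 4.94 for Hand1, and for the morula to blastocyst step 3.45 for Eomes.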

How the results depend on the processing

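Of 52 called results of the 10 factors, 14 were kept by every alternative run and 32 by every fit that left out an embryo or a replicate number. Of their 584 values under an alternative, 11 changed sign. The cause of these changes was not tested. The limits are 3 IVF embryos a stage, several probe sets that disagree, values without an absolute level and signal over background that was not judged.

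With the probe set of second largest SD, which 9 of the 10 factors have, 0 were called between clones and IVF embryos at the 1-cell stage, 1 at the 2-cell stage and 0 at the 8-cell stage. In IVF embryos the counts became 1 (oocyte to 1-cell), 2 (1-cell to 2-cell), 1 (2-cell to 4-cell), 0 (4-cell to 8-cell) and 1 (8-cell to morula), from the oocyte to the cloned 1-cell embryo 0, and in clones 2 (1-cell to 2-cell), 0 (4-cell to 8-cell), 1 (8-cell to morula) and 5 (morula to blastocyst). For differences of steps they became 0 (4-cell to 8-cell), 0 (8-cell to morula) and 2 (morula to blastocyst). On it Hand1 turned to 0.86 at the 8-cell stage, to 0.08 for the IVF 8-cell to morula step and to 0.23, 0.50 and -0.94 for the differences of the 3 steps from the 2-cell stage to the morula. Id2 turned to -0.01 (oocyte to IVF 1-cell) and -0.03 (cloned 8-cell to morula), Elf5 to -0.04 (IVF morula to blastocyst) and Cdx2 to -0.01 (cloned 8-cell to morula).

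Quantile normalization gave 1 call for the oocyte to IVF 1-cell step, 2 for the IVF 1-cell to 2-cell step, 2 for the cloned 4-cell to 8-cell step and 0 for the difference of the 1-cell to 2-cell step. With it Tead4 read -0.42 from the oocyte to the cloned 1-cell embryo (adjusted p = 0.00138 by limma), and the cloned morula to blastocyst step was -0.19 for Cdx2 and -0.07 for Gata3. In 1 fit of all 51 arrays, where all stages share 1 spread, counts between clones and IVF embryos were 2 (1-cell), 1 (2-cell), 2 (4-cell), 4 (8-cell) and 1 (morula), and 2 for the IVF 4-cell to 8-cell step. With hybridisation controls as a covariate 0 were called at the 1-cell and 0 at the 8-cell stage.

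Replicate numbers count single embryos, and the residual correlation of same-numbered clones and IVF embryos ran from -0.204 to 0.102, so the samples were not paired. With the replicate number as a block, 0 factors were called at the 1-cell stage, 0 at the 8-cell stage and 0 from the oocyte to the cloned 1-cell embryo, where Gata3 had an adjusted p of 0.0721 and Tfap2c of 0.145.

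Leaving out 1 embryo gave 1 to 1 calls at the 1-cell and 8-cell stages and 0 to 1 at the blastocyst, and 1 to 3 for the oocyte to cloned 1-cell step. For other steps all embryos of a replicate number were left out together. For IVF steps in order the counts were 1 to 3, 2 to 3, 0 to 2, 0 to 1, 3 to 5 and 4 to 5. For clone steps they were 4 to 5, 2 to 3, 0 to 1, 3 to 3 and 8 to 8. For differences of steps they were 2 to 2, 0 to 2, 0 to 2, 1 to 3 and 1 to 1. Leaving out 8-cell clone replicate 4 alone, an alternative chosen after seeing the data, gave 0 calls for the cloned 4-cell to 8-cell step and 2 for its difference.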
